A study of Mus musculus with 8 samples.

Results

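Transforming growth factor beta (Tgf-beta) signalling and the scar matrix it acts on were followed here in early wound scars of mice, through 9 genes fixed by name. They are the ligands Tgfb1, Tgfb2 and Tgfb3, the receptors Tgfbr1 and Tgfbr2, the microfibril protein gene Ltbp2, and the matrix genes Postn, Tnc and Fn1. Each gene had 1 row on the array that the platform annotation pairs with its symbol alone, so all 9 of 9 were measured, among 20259 genes tested. Whole-skin biopsies of wound scars were profiled on Affymetrix exon arrays, 1 array a sample. A low-regeneration group (low 1 to 4) and a high-regeneration group (high 1 to 4) held 4 mice each and came from 2 strains that differ in how far they regenerate hair in the scar. The sources used here name no strain, genotype, age or day of biopsy, and no treatment other than the wound is named. Strain and regeneration level cannot be told apart in this design, since each level is a single strain.

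In skin, the Tgf-beta ligands are secreted in a latent form held in the matrix and act after their release. The ligand binds Tgfbr2, which then activates Tgfbr1, and Tgfbr1 phosphorylates Smad2 and Smad3, which carry the signal to target genes. The pathway is known for driving fibroblasts to contract the wound and to lay down scar matrix. Fibronectin (Fn1) is a scaffold of early wound matrix, while tenascin C (Tnc) and periostin (Postn) are matricellular proteins that are scarce in resting adult dermis and rise during repair. Ltbp2 belongs to the family of latent Tgf-beta binding proteins but is itself a partner of fibrillin that does not bind the latent ligand.

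None of the 9 genes passed the test between groups, so these scars gave no called difference in Tgf-beta ligands, receptors or scar matrix genes. Tnc, Tgfb2 and Postn had the largest differences, each with a higher mean in the high-regeneration scars, and the other 6 had differences of -0.05 to 0.13 on the log2 scale. Calls were made in limma, a linear model fitted to all genes together, where the Benjamini-Hochberg adjusted p fell under 0.05, and 4.32% of all genes were called. At an unadjusted p under 0.05 the count was 3 of 9 members, against 21.8% of all genes. The low and high arrays of a member overlapped in all 9 cases, whereas 14.5% of all genes had groups that did not overlap. Differences are given throughout as high minus low regeneration on the log2 scale. Their median was 0.08 over the members and 0.03 over all genes, and 8 of 9 members and 57.2% of all genes had a positive estimate.

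Some arrays stood apart. Low 3 and low 4 had mean log2 values of 9.73 and 10.33 over 10 measured skeletal muscle markers of 12 listed, against 6.82 to 7.04 in the other arrays. None of the muscle markers was called, nor any of the 7 adipocyte markers, which averaged 8.05 and 8.14 in low 3 and low 4 and 6.73 to 7.18 elsewhere. The Y-linked transcript Eif2s3y was at 7.57 to 7.70 in low 2, low 4 and high 4 and at 4.08 to 4.76 in the others. Xist, of the inactive X chromosome, was at 6.11 in high 4, intermediate in low 2 (9.60) and low 4 (10.05), and at 12.74 to 12.93 elsewhere. Low 2 and low 4 thus held both signals, and whether either held RNA of more than 1 mouse was not tested. Markers of the labelled tissue were present in every array, with means of 11.70 to 12.07 over 7 keratinocyte markers and 10.66 to 10.88 over 9 fibroblast markers. The 8 smooth muscle and pericyte markers, 1 called higher and 1 lower, averaged 8.57 to 8.81 in the low and 8.42 to 8.74 in the high group. Hair follicle markers, of which 9 of 10 were called lower, averaged 10.02 to 10.77 in the low group and 8.07 to 9.08 in the high group. In a biopsy, fewer cells of a type and less RNA per cell cannot be told apart.

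Promoter sequence is shown for the 3 members with the smallest unadjusted p, Tnc, Postn and Tgfb2, to give the letters in front of a transcript start of the genes that the results turn on. RefSeq (GRCm38.p6) held a promoter for 7 of the 9 members, all but Tgfb3 and Fn1, and the first listed window was used, taken as the 250 bases before the transcript start that the window was built on. For Tgfb2 and Ltbp2 that start lies inside the gene as RefSeq bounds it (1:186622787-186709697 for Tgfb2). Capitals mark TATAAA, the core of a TATA box, and CAGAC, the short element that Smad proteins are known to bind, on either strand. The windows are chr4:64047016-64047265 on the minus strand for Tnc, chr3:54359017-54359266 on the plus strand for Postn and chr1:186705990-186706239 on the minus strand for Tgfb2, each written 5′ to 3′ along the gene.
Tnc: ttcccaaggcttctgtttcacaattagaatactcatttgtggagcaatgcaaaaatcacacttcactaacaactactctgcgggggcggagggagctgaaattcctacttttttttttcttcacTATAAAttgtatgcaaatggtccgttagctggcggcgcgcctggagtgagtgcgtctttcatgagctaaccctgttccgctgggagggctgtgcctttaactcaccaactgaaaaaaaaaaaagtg
Postn: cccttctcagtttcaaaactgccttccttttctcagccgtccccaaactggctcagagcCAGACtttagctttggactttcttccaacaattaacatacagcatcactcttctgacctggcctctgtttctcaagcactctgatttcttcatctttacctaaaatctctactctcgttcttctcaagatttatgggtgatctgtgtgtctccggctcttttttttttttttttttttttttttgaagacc
Tgfb2: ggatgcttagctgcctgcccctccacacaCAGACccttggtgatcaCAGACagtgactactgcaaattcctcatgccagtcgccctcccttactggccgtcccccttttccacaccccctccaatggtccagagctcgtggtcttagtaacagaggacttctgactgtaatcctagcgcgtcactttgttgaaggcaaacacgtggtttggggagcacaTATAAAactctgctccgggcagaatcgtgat

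In the Tgfb2 window TATAAA began 31 bases before that transcript start, and CAGAC began 204 and 221 bases before it. The Tnc window held TATAAA at 126 bases and no CAGAC, and the Postn window held CAGAC at 191 bases and no TATAAA. Over the 7 members with a promoter, 2 held TATAAA, found in 13% of 27025 promoters of the same length, and 4 held CAGAC, found in 42.1%. TGANTCA, the element of AP-1 factors, was in 0 of the 7 windows and in 6.87% of all promoters, read on both strands. These are matches of letters and no measurement of binding.

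**Figure D1:**
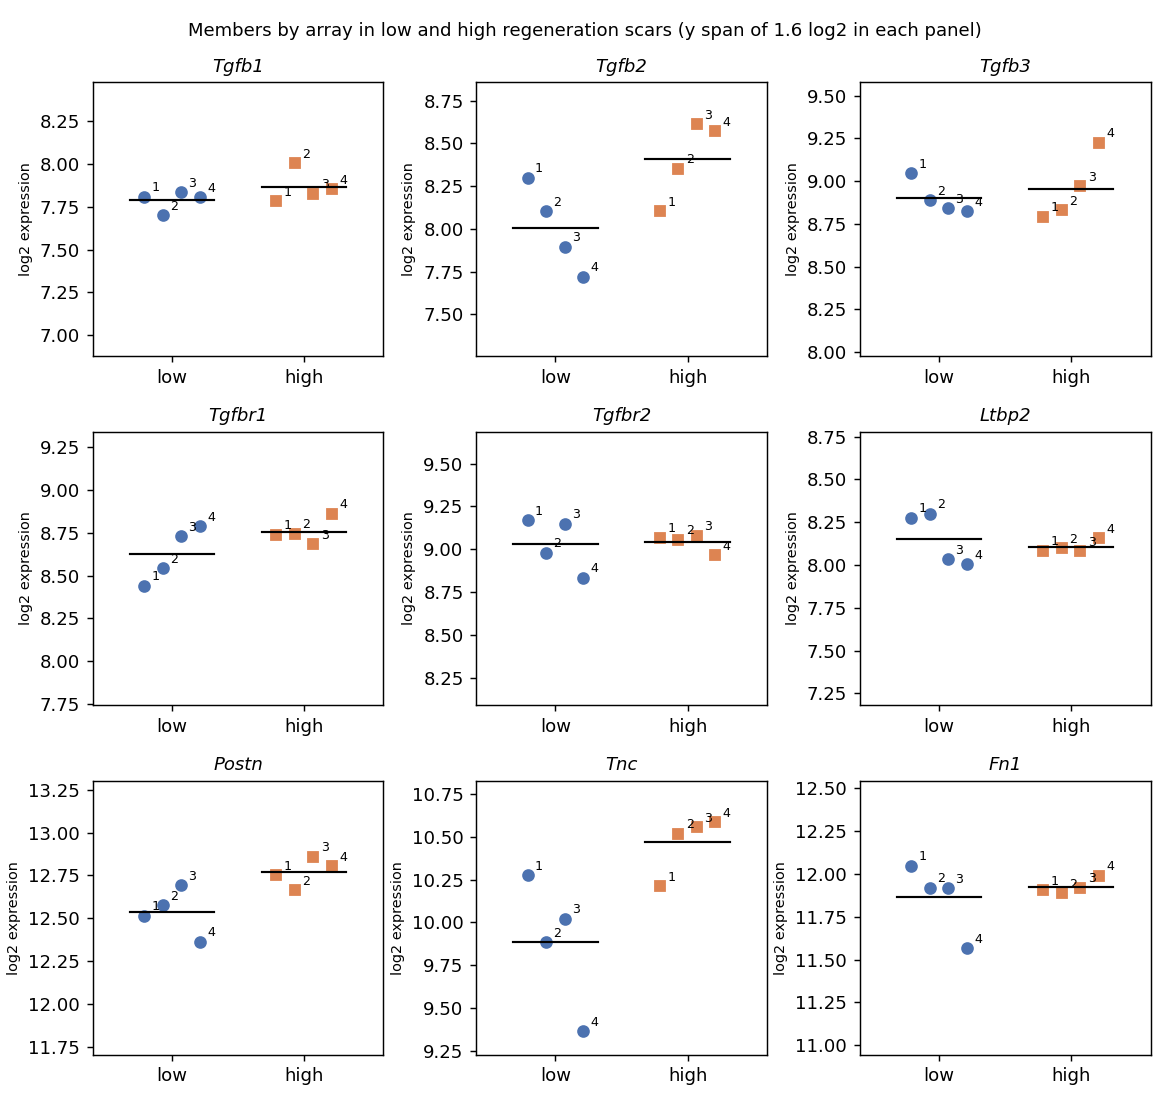
Log2 expression (y axis, the same span in each panel) of the 9 genes in each array of the low (circles) and high (squares) regeneration groups. Digits are the replicate numbers and bars the group means. Low 4 lies below the other low arrays for Tgfb2, Tgfb3, Tgfbr2, Ltbp2, Postn, Tnc and Fn1, and every panel shows overlap between the groups.

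Among the ligands, Tgfb2 showed the largest difference and Tgfb1 and Tgfb3 were close to level. Tgfb2, the isoform known for its part in hair follicle formation in the mouse embryo, was at 8.30, 8.10, 7.90 and 7.72 in low 1 to 4. In high 1 to 4 it was at 8.10, 8.35, 8.61 and 8.57. High 2, 3 and 4 lay above every low array, while high 1 fell within the low range. Group means were 8.005 ± 0.25 (SD, n = 4) for the low and 8.41 ± 0.23 for the high arrays, a difference of 0.40 ± 0.15 (SE; 95% confidence interval 0.07 to 0.73; adjusted p = 0.158). The 2 lowest Tgfb2 values were those of the muscle-rich low 3 and low 4, and without these arrays the difference was 0.21 (-0.15 to 0.56). With the mean of the muscle markers as a covariate it was 0.20 (-0.13 to 0.53). These markers were high only in low 3 and low 4, so the covariate fit largely repeats the fit without these arrays. Without low 2, low 4 and high 4 the Tgfb2 difference was 0.26 (-0.19 to 0.70). The part of muscle content in the full difference was not tested further.

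Tgfb1, the isoform most linked to scarring and released by platelets and macrophages, was at 7.81, 7.70, 7.83 and 7.81 in low 1 to 4. The high arrays were at 7.78, 8.003, 7.83 and 7.85, with high 2 the highest of all 8 arrays and the others close together. The difference was 0.08 ± 0.07 (SE; interval -0.07 to 0.23; adjusted p = 0.510), which on the linear scale allows from 0.951-fold to 1.17-fold. Without high 2 it was 0.03. The 7 macrophage markers, 4 with a positive estimate and 1 called higher, averaged 9.13 to 9.63 in the low and 9.12 to 9.46 in the high group. The 5 measured platelet markers, 4 with a positive estimate and 1 called lower, averaged 7.26 to 7.34 and 7.05 to 7.29. Both means thus mix markers of opposite sign, and the part of either cell type in the Tgfb1 level was not tested.

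Tgfb3, the isoform associated with fetal healing with little scar, was at 9.05, 8.89, 8.84 and 8.82 in low 1 to 4 and at 8.79, 8.83, 8.97 and 9.22 in high 1 to 4. High 4 was the highest array and high 1 the lowest, so the high group enclosed the low group. The Tgfb3 difference was 0.05 ± 0.10 (interval -0.17 to 0.28; adjusted p = 0.778). It changed sign without high 4 (-0.04), after median centring of the arrays (-0.011) and in the 3 settings that removed or adjusted for arrays with muscle or Y-linked signal (-0.08 to -0.014). Median centring shifted the estimate of every gene by the same -0.065.

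Neither receptor was called between the groups. Tgfbr1, the kinase that phosphorylates Smad2 and Smad3, was at 8.44, 8.54, 8.73 and 8.79 in low 1 to 4 and at 8.74, 8.75, 8.68 and 8.86 in high 1 to 4. Low 3 and low 4 were at the level of the high arrays, and low 1 and low 2 lay below all of them. The difference was 0.13 ± 0.09 (interval -0.07 to 0.33; adjusted p = 0.401). Without low 3 and low 4 it was 0.27 (0.08 to 0.45; adjusted p = 0.165), the reverse of what leaving out these arrays did to Tgfb2. Median centring brought it to 0.07, and it was also 0.07 without low 1.

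Tgfbr2, which binds the ligand first, was at 9.17, 8.98, 9.15 and 8.83 in low 1 to 4. The high arrays were at 9.07, 9.05, 9.08 and 8.97, all inside the low range. The difference of 0.01 ± 0.08 (interval -0.18 to 0.20; adjusted p = 0.961) was the smallest of the 9, and its sign was negative in 8 of 22 alternative settings, among them median centring (-0.06) and cyclic loess (-0.006). The interval leaves room for a change of up to 0.884-fold in one direction or 1.14-fold in the other.

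Ltbp2 was the only member with a lower mean in high regeneration. It was at 8.28 and 8.30 in low 1 and low 2, at 8.03 and 8.01 in low 3 and low 4, and between 8.08 and 8.16 in the high arrays. The muscle-rich biopsies thus lay below the high group and the other low arrays above it. The difference was -0.05 ± 0.08 (interval -0.23 to 0.13; adjusted p = 0.745) and -0.18 (-0.33 to -0.03; adjusted p = 0.238) without low 3 and low 4. It was -0.008 without low 1 and -0.00031 without low 2.

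**Figure D2:**
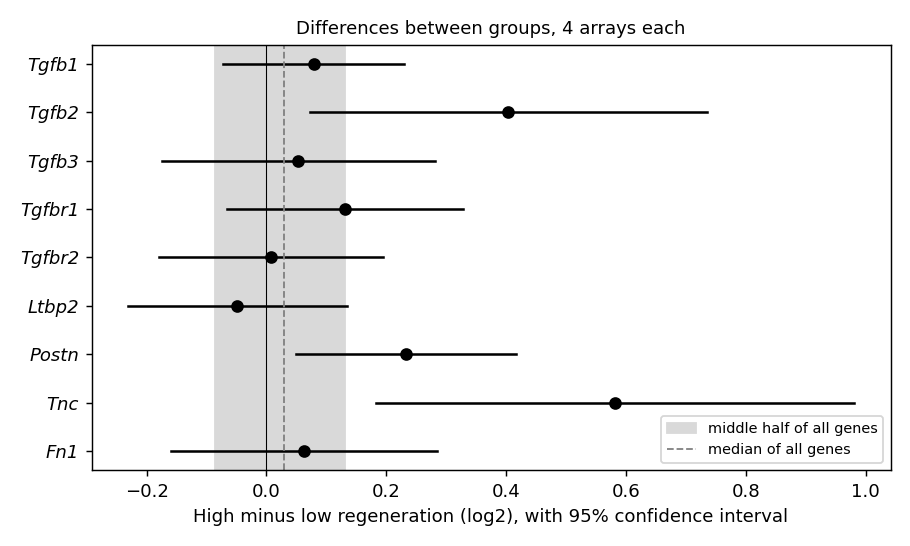
Difference between group means (x axis, high minus low regeneration, log2) for each gene, with its 95% confidence interval from the fit to all genes. The dashed line is the median of all 20259 genes and the shaded band holds the middle of their distribution, from -0.09 to 0.13. The intervals of Tgfb2, Postn and Tnc lie above 0 before adjustment for the number of genes tested, and the other 6 include 0.

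The matrix genes included the largest difference of the 9. Tnc, a matricellular protein found at wound edges, was at 10.28, 9.88, 10.02 and 9.36 in low 1 to 4. It was at 10.21, 10.52, 10.56 and 10.59 in high 1 to 4. High 2, 3 and 4 were higher than every low array, high 1 was just under low 1, and low 4 was the lowest array. Means were 9.89 ± 0.38 (SD, n = 4) and 10.47 ± 0.17, a difference of 0.58 ± 0.18 (SE; interval 0.18 to 0.98), or 1.497-fold (1.14 to 1.97). Its adjusted p = 0.101 missed the threshold. Of all genes 3.30% had a larger difference in either direction and 8.95% a smaller p.

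The size of the Tnc difference depended on which low arrays were used. It was 0.71 without low 1 (adjusted p = 0.0440, the only setting of 22 in which any member was called; 0.0440 to 0.496 over the settings) and 0.41 without low 4. Without low 3 and low 4 it was 0.39 (0.05 to 0.73), and with the muscle markers as a covariate 0.35 (-0.07 to 0.77). Leaving out the arrays with Y-linked signal gave 0.28 (-0.06 to 0.62). The estimate was positive in all 22 settings, some of which could not change it.

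Postn, which helps cross-link collagen fibrils and binds integrins, was at 12.52, 12.58, 12.69 and 12.36 in low 1 to 4 and at 12.75, 12.66, 12.86 and 12.80 in high 1 to 4. High 2 was just under low 3, and the other 3 high arrays lay above every low array. The difference was 0.23 ± 0.08 (SE; interval 0.05 to 0.42; adjusted p = 0.143), or 1.17-fold. It was 0.22 (0.04 to 0.41) without low 3 and low 4, close to the value from all arrays. Without the arrays with Y-linked signal it was 0.15 (-0.11 to 0.41), and after cyclic loess 0.15 (-0.00253 to 0.31).

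Fn1, which encodes fibronectin, was at 12.05, 11.92, 11.92 and 11.57 in low 1 to 4, with low 4 the lowest. The high arrays were tightly grouped at 11.90, 11.89, 11.92 and 11.99, all within the low range. The difference was 0.06 ± 0.10 (interval -0.16 to 0.28; adjusted p = 0.731), and without low 4 it was -0.04. The same change of sign occurred after median centring (-0.0023), which shifted every gene by the same -0.065, and after cyclic loess (-0.0029). Fn1 therefore had no settled direction here, whereas Tnc, Postn, Tgfb2, Tgfb1 and Tgfbr1 had positive estimates in all 22 settings and Ltbp2 a negative one in all 22. Some of these settings could not move a member's estimate, so their sign was fixed in advance. They were the replicate block, the trend and robust variance models, both filters and the row choice.

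**Figure D3:**
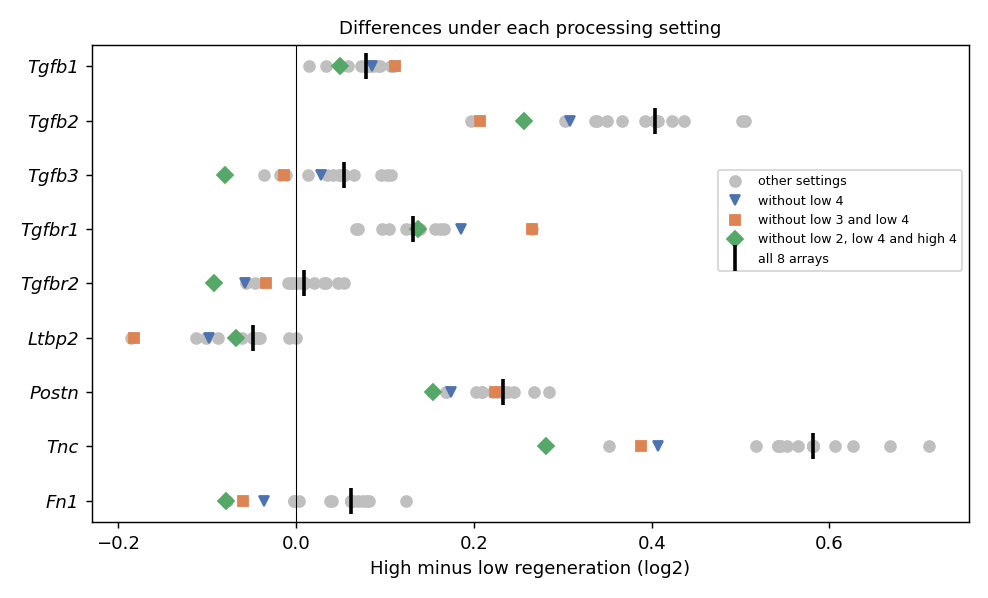
Difference between group means (x axis, high minus low, log2) for each gene under 22 alternative settings and, as a black bar, with all 8 arrays. The triangle is without low 4, the square without low 3 and low 4, and the diamond without low 2, low 4 and high 4. Tnc runs from 0.28 to 0.71 and Tgfb2 from 0.20 to 0.51, while Tgfb3, Tgfbr2 and Fn1 have values on both sides of 0.

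Within the low group, 1 biopsy was low for most members. Low 4 was the lowest low array for 7 of 9 members, against 22.0% of all genes, the exceptions being Tgfb1 and Tgfbr1. This was the array with the highest mean of the muscle markers (10.33). Low 3, the next highest (9.73), was the highest low array for Postn (12.69) and Tgfb1 (7.83). For Tgfb2, Tgfb3, Ltbp2 and Fn1 it was the next lowest after low 4. The part of muscle content in these values was not tested. The spread within the high group was narrower for Fn1 (SD of 0.05 against 0.21), Ltbp2 (0.04 against 0.16) and Tgfbr2 (0.05 against 0.16). It was also narrower for Tnc (0.17 against 0.38), Tgfbr1 (0.07 against 0.16), Postn (0.08 against 0.14) and, slightly, Tgfb2 (0.23 against 0.25). For Tgfb3 (0.20 against 0.10) and Tgfb1 (0.095 against 0.059) it was wider. These differences in spread were not tested.

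The genes with profiles nearest to a member were found for the 4 members that varied most over the 8 arrays, Tnc, Tgfb2, Postn and Tgfb3. Likeness was the root mean square difference between log2 profiles, each centred on its mean of 8 arrays. Nearest to Tnc were Arhgap27 (0.07), Sdcbp2 (0.08), a syntenin, and Calm4 (0.11), a calmodulin-like protein of skin. Nearest to Tgfb2 were Slc28a3 (0.05), a nucleoside transporter, Hmcn1 (0.05), the matrix protein hemicentin, and Pld2 (0.08), a phospholipase. For Postn they were Vapb (0.04), Jun (0.05), an AP-1 subunit, and Trio (0.05). For Tgfb3 they were Eva1a (0.06), Plau (0.06), the urokinase that generates plasmin, and Tubb6 (0.06), a beta tubulin. None of these 12 genes was called between the groups, with adjusted p from 0.0557 (Pld2) to 0.989 (Plau).

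**Figure D4:**
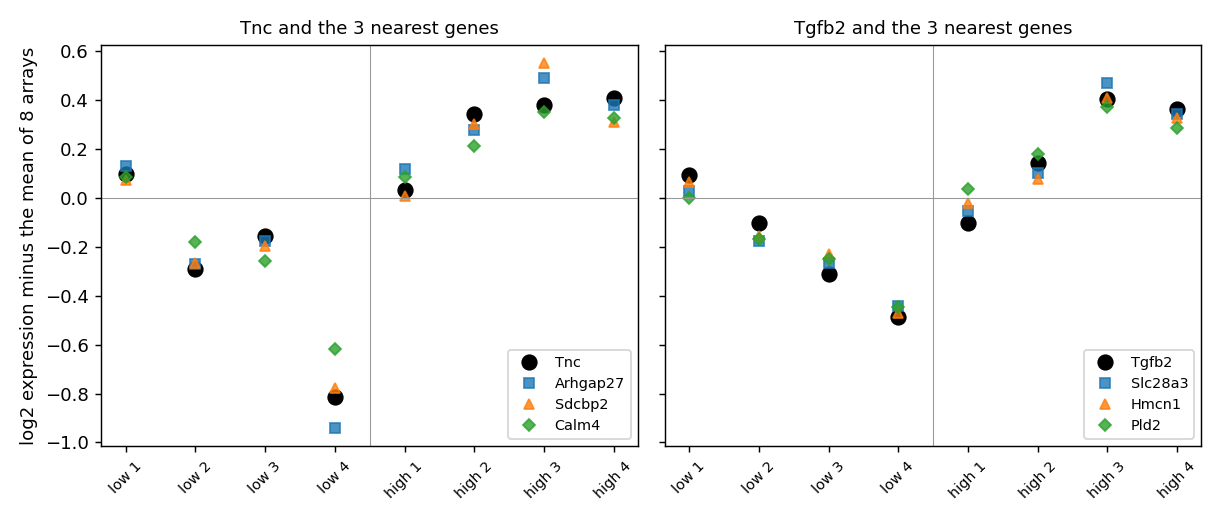
Log2 expression minus the mean of 8 arrays (y axis) in each array (x axis) for Tnc and for Tgfb2, with the 3 genes whose centred profiles lie nearest to each. A vertical line parts the low from the high arrays. All 8 genes are lowest in low 4, and high 1 lies under the other high arrays.

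The wider pathway was read from 5 lists of other genes, with 91 of 96 genes measured. Of these 1 was higher and 2 were lower in high regeneration, against 4.32% of all genes called in either direction. An unadjusted p under 0.05 was reached by 25 (27.5%), against 21.8% of all genes. The median difference was 0.08, against 0.03 over all genes, and 66 of 91 estimates were positive, against 57.2% of all genes. Called genes were Snai1 (higher), Bambi and Efemp1 (both lower).

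Latency and activation genes had 0 of 16 called, a median of 0.07 and 6 with an unadjusted p under 0.05. The smallest p-values belonged to Itgb8 and Thbs1. Itgb8, an integrin subunit that activates the latent ligand, had a difference of -0.38 ± 0.13 (SE; adjusted p = 0.134). Its values ran from 7.86 (low 1) to 8.43 (low 4) in the low group and from 7.59 to 7.95 in the high group. Thbs1, thrombospondin 1, another activator, had 0.31 ± 0.12 (adjusted p = 0.178), with low 4 lowest at 10.88 and the other arrays between 11.08 and 11.60.

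Receptors and Smad signalling had 0 of 22 higher and 1 lower, at a median of 0.02. Bambi, a decoy receptor without a kinase domain, fell by 0.66 ± 0.11 (SE; adjusted p = 0.0147). It was at 8.88, 9.28, 8.79 and 9.19 in low 1 to 4 and between 8.32 and 8.45 in the high arrays, with no overlap. The adjusted p stayed under the threshold when both muscle-rich arrays were left out (-0.71, adjusted p = 0.0342). It did not with the muscle markers as a covariate (-0.69, adjusted p = 0.0565) or without high 3 (-0.65, adjusted p = 0.0515). Without low 2, low 4 and high 4 the difference was -0.49 (adjusted p = 0.182; 0.00594 to 0.182 over the settings). Skil (0.34), Pmepa1 (0.36) and Eng (0.27), picked out after their values were seen, came next with adjusted p of 0.0568, 0.0633 and 0.0625. Skil and Pmepa1 encode inhibitors of Smad signalling that the pathway itself induces, and Eng is a co-receptor of endothelium. Among other genes of the list, Smad7, Ski and Smurf2 had differences of 0.13, 0.06 and 0.10 and Smad6 one of -0.18, none of them called. In Skil, Pmepa1 and Eng all 4 high arrays lay above every low array, while 14.5% of all genes had groups that did not overlap, in either direction. The 6 endothelial markers, with 1 called higher, averaged 8.25 to 8.42 in the low and 8.404 to 8.71 in the high group. The part of vessel content in the Eng difference was not tested. Hair follicle markers, 9 of 10 called lower, averaged 10.25, 10.77, 10.02 and 10.50 in low 1 to 4 and 8.07 to 9.08 in the high group. The part of follicle content in the Bambi difference was not tested either.

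Genes that Tgf-beta is known to induce had 1 of 22 measured higher, 0 lower, a median of 0.13 and 19 positive estimates. Snai1, a transcription factor that represses epithelial genes, rose by 0.33 ± 0.07 (SE; adjusted p = 0.0402). It was at 8.61, 8.39, 8.37 and 8.39 in low 1 to 4 and at 8.72, 8.75, 8.75 and 8.88 in high 1 to 4, every high array above every low one. Leaving out any 1 of the 7 arrays besides low 1 ended the call (adjusted p of 0.0695 to 0.110). So did leaving out both muscle-rich arrays (0.27, adjusted p = 0.202), within a span of 0.0186 to 0.437 over all settings. The Snai1 difference itself stayed between 0.30 and 0.39 when any 1 of the 8 arrays was left out. In those 7 fits, fewer genes were also called over all genes than with all 8 arrays.

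Matricellular proteins and matrix receptors had 0 of 21 measured genes called, a median of 0.08 and 5 with an unadjusted p under 0.05. Thbs4, a thrombospondin of tendon and healing tissue, was at 10.79, 9.68, 10.03 and 10.62 in low 1 to 4 and between 10.91 and 11.29 in the high group, a difference of 0.77 ± 0.22 (SE; adjusted p = 0.0909). Tnxb, the tenascin of resting dermis, had the opposite sign at -0.64 ± 0.19 (adjusted p = 0.0934). It was between 9.75 and 9.94 in the low arrays and at 9.31, 9.73, 8.98 and 8.70 in high 1 to 4, so that high 2 was near the low level.

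Microfibril genes had 0 of 10 measured higher and 1 lower, at a median of 0.08. Efemp1, which encodes fibulin 3, fell by 1.12 ± 0.23 (SE; adjusted p = 0.0319), or to 0.462-fold. It was at 7.05, 7.46, 8.26 and 7.73 in low 1 to 4 and between 6.20 and 6.75 in the high group. The highest values were those of the muscle-rich and fat-rich low 3 and low 4, and without them the difference was -0.75 (adjusted p = 0.0924). The call was also lost when low 2, low 4, high 2, high 3 or high 4 was left out (adjusted p of 0.0620 to 0.0943). The difference itself stayed between -1.31 and -0.91 when any 1 array was left out. With the muscle markers as a covariate the difference was -0.78 (adjusted p = 0.141). Without low 2, low 4 and high 4 the adjusted p was 0.349, the highest of a span of 0.0147 to 0.349 over the settings.

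**Figure D5:**
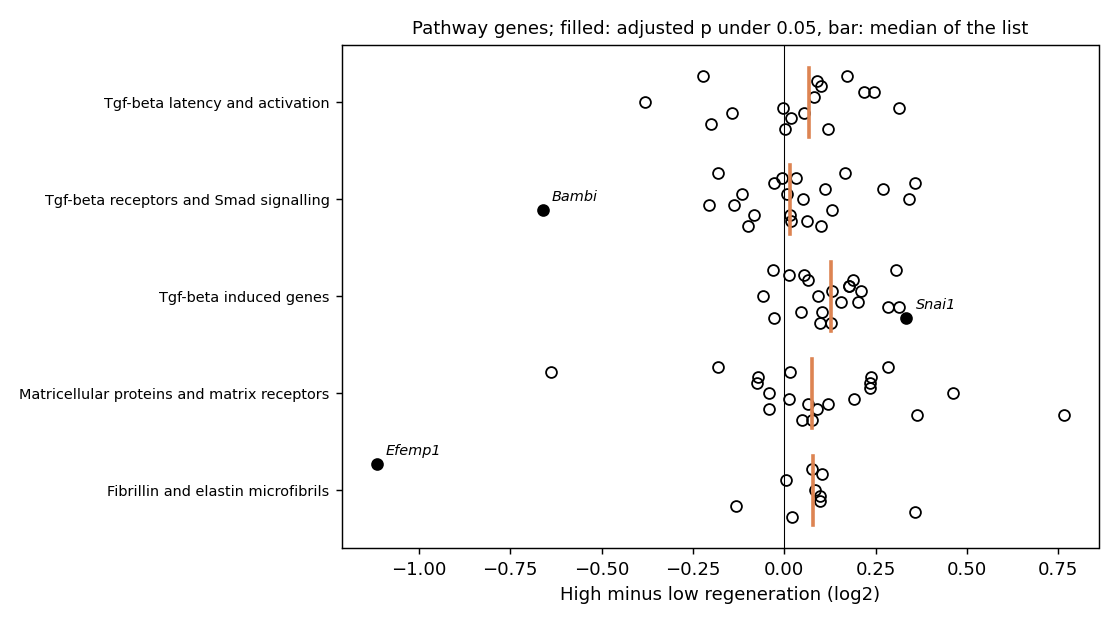
Difference between group means (x axis, high minus low regeneration, log2) for 91 other genes in 5 lists (y axis), each point a gene. Filled points passed an adjusted p of 0.05 (Bambi, Snai1 and Efemp1), open points did not, and bars are list medians, which lie between 0.02 and 0.13.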

How the data were processed

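Whole-skin scar RNA was measured on Affymetrix exon arrays, 4 mice a group. The deposited values are log2 expression per transcript cluster (115830 rows, 8 arrays, values from 2.10 to 14.92, array medians 6.09 to 6.29). Affymetrix Expression Console and PLIER appear, unversioned, among the submitters' processing notes; background correction and normalization are not stated in the sources used here. Rows paired with 1 symbol (25539) were averaged per gene, giving 20259 genes, with no filter on low values. High minus low was fitted in limma 3.58.1 (R 4.3.3; lmFit, eBayes, two-sided, Benjamini-Hochberg over all genes) and tested on simulated data. The 22 alternatives changed the normalization, variance model, filter, row choice, covariate, replicate block or arrays used. The muscle covariate and the fit without low 3 and low 4 are close to the same check. Array number limits the precision. Members and gene lists were chosen with earlier results of these data known. Named genes are the 9 members, the called genes of each list or else its 2 smallest p, and for 4 members the 3 nearest profiles. Outside this rule, Skil, Pmepa1 and Eng, and Smad7, Ski, Smurf2 and Smad6 set beside them, were picked after their values were seen. Unmatched list genes were not analysed here.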

Additional observations from a re-analysis of the deposited data

How the results depend on the processing

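Of 198 member values under the 22 alternatives, 179 had the direction reported and 1 passed the threshold (Tnc without low 1). Part of the 179 was fixed in advance. The replicate block, trend, robust fit, both filters and row choice cannot move a member's estimate. Members called higher numbered 0 to 1 when an array was left out. Reversed members were Tgfb3 (-0.011 after median centring, -0.014 without low 3 and low 4, -0.0801 without low 2, low 4 and high 4, -0.019 with the muscle covariate), Tgfbr2 (-0.056, -0.034, -0.092 and -0.047 in the same order, and -0.0058 after cyclic loess) and Fn1 (-0.0023, -0.059, -0.079, -0.077 and -0.0029). Leaving out 1 array gave -0.036 to 0.107 for Tgfb3, -0.058 to 0.054 for Tgfbr2 and -0.036 to 0.124 for Fn1. Median centring shifted the estimate of every gene by the same -0.065, so any positive estimate smaller in size than that changed sign. The causes of the other reversals were not tested. Pathway genes called higher were 0 with the replicate block, median centring, muscle covariate or either group of arrays removed, 3 with quantile normalization or a trend, and 4 with array weights or either filter. Those called lower were 0 with the block, the covariate or without low 2, low 4 and high 4, and 1 with the median filter or without low 3 and low 4. Without single arrays they were 0 to 6 and 0 to 3.

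Over all genes, 376 were higher and 500 lower. The counts were 212 and 593 after median centring, 291 and 628 after cyclic loess, 117 and 218 with the covariate, 127 and 198 without low 3 and low 4, and 5 and 10 without low 2, low 4 and high 4. Without single arrays they were 129 to 536 and 163 to 669. With the replicate block they were 105 and 134. Bambi had an adjusted p of 0.0501 with the block. Same-numbered arrays did not deviate together (r across genes of -0.26 to 0.025), so the numbers were not taken as pairs.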

Other observations

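Of 4 differences between members within each array, which show only whether 2 genes changed unequally, Tnc minus Fn1 was the 1 that separated the groups. The log2 difference Tnc minus Fn1 was -1.77, -2.04, -1.90 and -2.20 in low 1 to 4 and -1.69, -1.37, -1.36 and -1.40 in high 1 to 4, so every high array lay above every low one, though high 1 by only a small margin over low 1. Postn minus Fn1 was 0.47, 0.65, 0.78 and 0.79 in low 1 to 4 and 0.85, 0.78, 0.94 and 0.81 in high 1 to 4, with high 2 inside the low range. Tgfb2 minus Tgfb1 lay between -0.09 and 0.49 in low arrays and between 0.32 and 0.78 in high arrays, with overlap. Tgfb3 minus Tgfb1 lay between 1.01 and 1.24 in low arrays and between 0.83 and 1.37 in high arrays, again with overlap. These pairs were picked after the values were seen, and no test was run. Among single genes 14.5% had groups that did not overlap, and no such share was computed for pairs of genes. The separation of Tnc minus Fn1 therefore has no background to be read against.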
